A study of Bos taurus with 4 samples.

Results

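E3 ubiquitin ligases are the enzymes, or the enzyme complexes, that choose which protein is tagged with ubiquitin. The genes described here were taken from the platform's gene table wherever a probe set carried a single symbol of the RNF, FBXL, FBXO, FBXW, TRIM, MARCHF, KLHL, CUL, ASB, HERC, HECT, UBR, NEDD4, PELI or CBL series, with FBXL5 left out by the rule. The rule found 138 of 9155 measured genes, on 189 of 24016 probe sets. CBLN4, of the cerebellin family, and CBLIF, gastric intrinsic factor, match it by spelling alone, and the 136 other genes are called the ligase genes below. That name is broad, because many F-box, KLHL and ASB proteins are the substrate-binding subunits of cullin complexes and have no catalytic part of their own.

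The cells were gamma delta T cells, an innate-like lymphocyte class that is abundant in the blood of young cattle. They were sorted from blood of calves to a purity of over 97%, per the labels' protocols, which put the age of the calves at 1 to 6 months, while the series' design text calls them neonatal. After a night of rest, cells of each of 2 calves, 301 and 303, were cultured for 4 h in 42.2 µg/ml of APP, a water extract of apple polyphenol, or in phosphate-buffered saline alone (PBS), so that all groups share the sort, the rest and the culture. Each of the 4 Affymetrix arrays holds 1 calf and 1 treatment, which gives 2 arrays per group. The sources used here give no strain, sex or genotype. With 2 animals, p-values say nothing of the spread among other calves. They rest partly on the gap between the changes of these calves. The larger part is a spread pooled over all genes (1 residual against 5.86 prior degrees of freedom).

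Ubiquitin reaches a protein through an activating enzyme, a conjugating enzyme and a ligase. RING ligases, among them the RNF, TRIM, MARCHF, PELI and CBL proteins, hold the conjugating enzyme next to the target. HECT ligases (HERC, HECTD and NEDD4 proteins) and the RBR group first take the ubiquitin onto a cysteine of their own. Cullins are scaffolds that join a RING subunit to interchangeable receptors, which are F-box proteins on CUL1, SOCS-box proteins such as the ASB series on CUL5, and BTB proteins such as the KLHL series on CUL3. In T cells, ligases such as CBLB and RNF128 (GRAIL) restrain receptor signalling, PELI1 acts in Toll-like and interleukin-1 receptor signalling and in T cell activation, and several TRIM proteins act in antiviral defence.

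Values are log2 ratios of a probe set's signal to its own median over the 4 arrays, averaged over a gene's probe sets. A change is APP minus PBS within a calf, so a change of 1 is a doubling, and the level of one gene cannot be set against that of another. Because levels are lost on this scale, the arrays could not be checked for gamma delta T cell markers being present. Bulk RNA cannot tell fewer cells of a type from less RNA per cell. Among markers of other cells, 3 of 10 monocyte and macrophage genes rose (30%, against 23% of all genes) and 7 were not called. The risers were CD68 at 2.31, FCGR1A at 0.46 and CD14 at 0.46. Of 3 B cell genes CD79A (-0.80) and MS4A1 (-0.56) fell, of 7 alpha beta T and NK cell genes CD8A (1.08) rose and CD8B (-0.64) fell, and of 5 platelet and red cell genes 0 passed limma's test, also at an unadjusted p under 0.05. Of 11 gamma delta T cell genes, 6 fell (54.5%, against 29.7% of all genes) and 1 rose (9.09%, against 23%). The calls of CD14, CD8A, CD8B and CD2, a T cell surface gene counted among the 6 falls, were lost without the calf as a block (adjusted p = 0.0837, 0.281, 0.646 and 0.671, limma), and those of FCGR1A, CD14, MS4A1, CD8A, CD8B and 4 of the 7 gamma delta T cell genes in fits without 1 array. Some markers also differed between the calves under both treatments. Calf 303 minus calf 301 was 2.30 with PBS and 2.29 with APP for CD8B, 1.91 and 1.26 for CD8A, and 1.09 and 1.12 for CD2. Others went the other way, such as WC1.3, a gamma delta T cell gene, at -0.31 and -0.19. The part of these markers in the results below, splits between the animals included, was not tested.

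Ligase transcripts were lower with APP more often than higher. In limma's test, which took the calf as a block and called genes at an adjusted p under 0.05, 61 of 136 genes (44.9%) fell, 19 (14%) rose and 56 were not called. Over all 9155 genes 52.7% passed, 29.7% falling and 23% rising, so that the ligases' total share of 58.8% stood near the background, while the split between falls and rises stood apart from it by a difference that was not tested. The median change was -0.19 (-0.20 in calf 301 and -0.22 in calf 303), beside 0.01 for all genes. Falls were also the larger changes. At least 2-fold falls in both calves were found for 12 of the 136 ligase genes, a share somewhat above the 6.29% of all genes. A rise of that size in both calves was found for 0, against 3.5% of all genes (9.79% in either direction). Neither difference was tested.

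Both counts depended on the scaling, and both were smaller in fits without 1 array. Those fits also leave out the calf block, so a lost call cannot be put down to the missing array alone. With all 4 arrays, leaving out the block ended the call of 5 rises and 8 falls. Without 1 array, in fits that cannot use the block, the count of rises was 9 with PBS 301 left out, 11 with APP 301 left out, 5 with PBS 303 left out and 13 with APP 303 left out. The count of falls was 37, 44, 32 and 51 in the same order. Of the 80 called genes, 35 kept the call in all 4 of these fits. They were 4 of the risers, namely RNF19B, RNF121, PELI1 and RNF126, and 31 of those that fell. The array-wide scale matters for direction. Bacterial control transcripts added at hybridization read higher on the APP arrays, and scaling to them lowers every mean change by 0.85. On that scale 126 ligase genes fell, 0 rose (0 also at an unadjusted p under 0.05, limma), and of the 19 risers RNF19B alone kept a positive change, 0.15. Every "rose" below therefore means a rise against the bulk of the array.

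**Figure D1:**
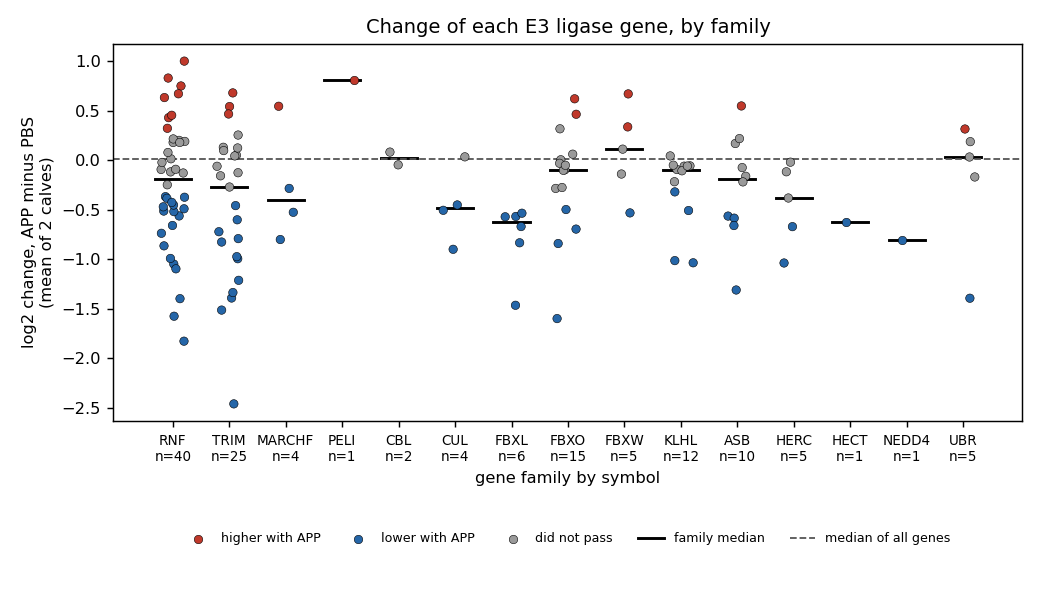
Mean log2 change over 2 calves, APP minus PBS, for each of the 136 ligase genes by family (points, red higher, blue lower, grey did not pass limma's test at an adjusted p of 0.05), with the family median as a bar and the median of all genes (0.01) as a dashed line. All 6 FBXL genes lie below the line in blue, the RNF and TRIM families reach from rises to falls, and the lowest point is TRIM34 at -2.46.

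The TRIM proteins are RING ligases with B-box and coiled-coil domains, many of them tied to antiviral defence. Of 25 TRIM genes 12 fell (48%, against 29.7% of all genes) and 3 rose (12%, against 23%), with a median of -0.27. TRIM34, an interferon-inducible member, had the largest change of all ligase genes. Its log2 ratio was 0.61 with PBS and -2.05 with APP in calf 301, and 1.15 with PBS and -1.11 with APP in calf 303. Both APP arrays thus lay far below both PBS arrays, and 73.8% of all genes had treatments that did not overlap. It fell 5.5-fold (-2.46 ± 0.28, SD, n = 2 calves, limma adjusted p = 1.95e-05), measured by 1 probe set.

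Other large TRIM falls had the same shape, with both APP arrays below both PBS arrays. Choosing large called changes favours this shape, and the treatments did not overlap for 73.8% of all genes. TRIM41 had 0.49 and 0.80 with PBS in calves 301 and 303, and -0.96 and -0.77 with APP. It fell 2.85-fold (-1.51 ± 0.09, SD, n = 2 calves). TRIM13, an ER-anchored ligase, fell by 1.58 in calf 301 and 1.20 in calf 303. TRIM68 fell by 1.43 and 1.24 and TRIM52 by 1.20 and 1.23. All of these kept the call in every fit without 1 array, as did TRIM38, TRIM21 and TRIM37.

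TRIM21, a cytosolic antibody receptor, fell by 1.14 in calf 301 and 0.85 in calf 303. TRIM5, which recognises retroviral capsids, fell by 0.79 in each calf, and TRIM28, a corepressor that works with zinc finger proteins, fell by 0.46 in each. The call of TRIM28 was lost without the block (adjusted p = 0.0632, limma). TRIM25, which ubiquitinates the RNA sensor RIG-I, was at -0.54 in calf 301 and near 0 in calf 303 and did not pass (adjusted p = 0.143), and neither did TRIM56 (0.10) or TRIM8 (0.04). TRIM5, TRIM34 and TRIM6 are related genes that lie near each other on one chromosome in the RefSeq table of ARS-UCD2.0. TRIM6 was at -0.33 for calf 301 and 0.20 for calf 303 (adjusted p = 0.729, limma), and whether probes of the 3 genes share signal was not tested.

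The TRIM genes that rose were TRIM10, known from red cell development, TRIM27 and TRIM54. TRIM10 had -0.31 and -0.33 with PBS in calves 301 and 303, and 0.22 and 0.49 with APP, a rise of 0.68 ± 0.21 (SD, n = 2 calves). TRIM27 rose by 0.54 in each calf and TRIM54 by 0.30 and 0.63. The calls of TRIM10, TRIM27, TRIM54, TRIM28, TRIM32, TRIM45 and TRIM5 were all lost without PBS 303, with a largest adjusted p over the fits without 1 array of 0.0527 to 0.277, and 5 of them also without APP 301.

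The RNF symbols gather RING ligases of many kinds. Of 40 genes 19 fell (47.5%, against 29.7% of all genes) and 8 rose (20%, near the 23% of all genes), with a median of -0.19. The largest rise of all ligase genes was that of RNF19B (NKLAM), a ligase of natural killer cell killing. Its log2 ratio went from -0.73 to 0.41 in calf 301 and from -0.50 to 0.36 in calf 303. This put both APP arrays above both PBS arrays, and 73.8% of all genes had treatments that did not overlap. It rose 2.00-fold (1.00 ± 0.20, SD, n = 2 calves, limma adjusted p = 0.000322). Next came RNF121, a membrane ligase of the secretory pathway, with -0.39 and -0.44 on the PBS arrays and 0.54 and 0.29 on the APP arrays of calves 301 and 303. RNF126, which serves the removal of mislocalised proteins with BAG6, had -0.43 and -0.44 with PBS against 0.30 and 0.32 with APP, a rise of 0.75 ± 0.01. RNF2, the RING1B subunit that marks histone H2A in Polycomb complexes, rose by 0.68 in calf 301 and 0.66 in calf 303.

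RNF113A, a zinc finger protein tied to splicing, was the RNF gene that fell most. Its log2 ratio was 0.72 and 0.60 with PBS in calves 301 and 303 and -1.08 and -1.25 with APP. It fell 3.55-fold (-1.83 ± 0.04, SD, n = 2 calves, limma adjusted p = 2.15e-05). RNF13, a ligase of endosomes and lysosomes, had 0.63 and 0.46 with PBS and -0.71 and -1.35 with APP, a fall of 2.98-fold. RNF145, an ER ligase of sterol-regulated degradation, had 0.38 and 0.74 with PBS and -1.15 and -0.53 with APP, a fall of 2.63-fold. In each of these the treatments did not overlap, as in 73.8% of all genes.

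Members of the RBR group, put side by side after their values were seen, moved both ways. Beside RNF19B, RNF216 rose by 0.82 in calf 301 and 0.44 in calf 303, and RNF144B by 0.59 and 0.27. RNF14 fell by 1.18 and 0.92. RNF31 (HOIP), the catalytic subunit of the complex that makes linear ubiquitin chains, fell by 0.68 and 0.26. RNF19A, the nearest relative of RNF19B, was at 0.20 and 0.18 and did not pass (adjusted p = 0.136, limma). The calls of RNF144B and RNF31 were lost without the block (adjusted p = 0.0702 and 0.0866).

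DNA damage and chromatin ligases also differed from one another. RNF168, which marks histones at DNA breaks, fell by 1.01 in calf 301 and 0.97 in calf 303, while RNF8, which acts before it, was at -0.02 on average and did not pass (adjusted p = 0.856, limma). RNF20, which marks histone H2B, fell by 0.48 and 0.56. RNF4, a SUMO-targeted ligase, was at -0.09 and did not pass.

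RNF128 (GRAIL), linked to T cell unresponsiveness, had APP minus PBS values of -0.04 for calf 301 and -0.20 for calf 303 and was not called (adjusted p = 0.351, limma). Its arrays split by animal and not by treatment, at -0.38 and -0.42 in calf 301 and 0.49 and 0.29 in calf 303, PBS before APP. RNF181 showed the widest split between the animals among the ligase genes, with 0.63 and 0.36 in calf 301 against -0.53 and -1.04 in calf 303. It fell by 0.27 and 0.50 with the calf as a block, and the call was lost without it (adjusted p = 0.625). RNF7, the RING subunit of CUL5 complexes, fell by 0.37 and 0.48, a call also lost without the block (adjusted p = 0.178), as was that of RNF185 (0.30 and 0.34, adjusted p = 0.168). Of the 27 called RNF genes 16 lost the call in some fit without 1 array, 15 of them without PBS 303, and RNF216 without PBS 301 (adjusted p = 0.0764). RNF2 was lost only without PBS 303 (adjusted p = 0.069), and RNF168, RNF14, RNF145, RNF13 and RNF113A were kept in all 4.

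**Figure D2:**
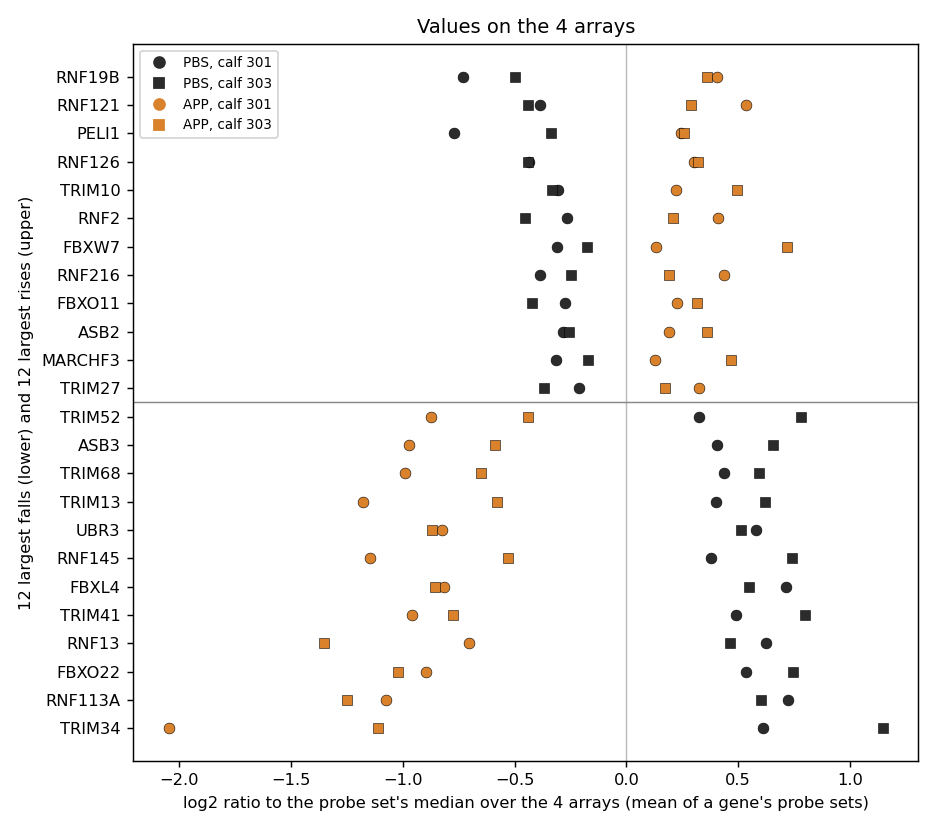
Log2 ratio on each of the 4 arrays (black PBS, orange APP, circles calf 301, squares calf 303) for the 12 ligase genes with the largest falls (lower block) and the 12 with the largest rises (upper block). In all 24 genes the APP arrays lie on one side of the PBS arrays, as they do for 73.8% of all genes. The choice of called genes with large changes of the same sign in both calves favours this. The separation is widest for TRIM34.

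Membrane-bound MARCHF ligases remove proteins from cell membranes. MARCHF3 rose by 0.44 in calf 301 and 0.64 in calf 303, and the other 3 measured fell. With 4 genes these are 25% and 75%, against 23% rising and 29.7% falling of all genes. MARCHF2 fell by 1.00 and 0.60, and its probe sets were at -1.47 and -0.13. MARCHF8, which lowers class II molecules and the transferrin receptor at the cell surface, fell by 0.63 and 0.42, but its 3 probe sets ran from -1.49 to 0.06, and with their median in place of their mean the change was -0.23 and did not pass (adjusted p = 0.176, limma). MARCHF6, a ligase of ER quality control, fell by 0.29, a call lost without the block (adjusted p = 0.0737). The calls of MARCHF3, MARCHF6 and MARCHF8 were lost without PBS 301 and without PBS 303, with a largest adjusted p of 0.086 to 0.283.

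PELI1 and the CBL genes are those of the list most often studied in lymphocyte signalling. PELI1 had -0.77 and -0.34 with PBS in calves 301 and 303 and 0.25 and 0.26 with APP, so the APP arrays nearly coincided and the PBS arrays did not. It rose 1.75-fold (0.81 ± 0.30, SD, n = 2 calves, limma adjusted p = 0.00162), its 3 probe sets ranging from 0.32 to 1.11, and kept the call in every fit without 1 array. CBLB, a brake on T cell receptor signalling, had values of -0.05 for calf 301 and 0.21 for calf 303 (adjusted p = 0.553), and CBLC of -0.12 and 0.02. Neither passed, 0 of 2 also at an unadjusted p under 0.05.

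The list held 4 cullin scaffolds, none of them CUL3 or a CUL4 gene. All but CUL1 fell, 3 of 4 genes (75%, against 29.7% of all genes). CUL2, the scaffold of the VHL ligase, had 0.33 and 0.42 with PBS in calves 301 and 303 and -0.61 and -0.44 with APP, and fell 1.87-fold (-0.90 ± 0.06, SD, n = 2 calves, limma adjusted p = 0.000292). CUL5, which carries SOCS-box receptors, fell by 0.30 and 0.61 and CUL7 by 0.44 and 0.57. One CUL7 probe set stood at 0.10 and the lowest at -0.95. CUL1, the scaffold of SCF complexes, was at 0.03 and did not pass (adjusted p = 0.794, limma), with -0.20 to 0.30 over its 3 probe sets. The PELI1 probe set at 0.32 shares the stem of its name with CUL1 probe sets, and which gene it measures was not tested. The calls of CUL5 and CUL7 were lost without PBS 301, PBS 303 or APP 303 (largest adjusted p 0.163), and that of CUL2 was kept throughout.

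F-box proteins, the receptors of SCF complexes, counted 11 falls and 4 rises among 26 (42.3% and 15.4%, against 29.7% and 23% of all genes). All 6 FBXL genes fell, with changes from -1.46 to -0.54. FBXL4, a mitochondrial protein that restrains mitophagy, had 0.71 and 0.55 with PBS in calves 301 and 303 and -0.81 and -0.85 with APP. It fell 2.76-fold (-1.46 ± 0.09, SD, n = 2 calves, limma adjusted p = 4.92e-05), and its probe sets differed in size at -2.08 and -0.85. FBXL15 fell by 0.75 and 0.92, FBXL20 by 0.76 and 0.58 and FBXL12 by 0.47 and 0.67. FBXL8 fell by 0.96 in calf 301 and 0.18 in calf 303, one of the widest gaps between the calves. The calls of FBXL8 and FBXL14 were lost without the block (adjusted p = 0.0831 and 0.122), and those of FBXL12, FBXL14 and FBXL8 without PBS 303 (largest adjusted p over the fits 0.0758 to 0.404).

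Of 15 FBXO genes 4 fell (26.7%, near the 29.7% of all genes) and 2 rose (13.3%, against 23%). FBXO22, a receptor for the histone demethylase KDM4A, had 0.54 and 0.74 with PBS in calves 301 and 303 and -0.90 and -1.02 with APP. It fell 3.03-fold (-1.60 ± 0.24, SD, n = 2 calves, limma adjusted p = 5.98e-05). FBXO9 fell by 0.98 and 0.70. FBXO25 fell by 0.70 on average and FBXO7, a Parkinson disease gene that acts in mitophagy, by 0.50, but in both a probe set stood near or above 0, at 0.01 and 0.17. FBXO11, a receptor for the repressor BCL6, rose by 0.50 and 0.74, and this rise came from 1 probe set at 1.32 while the other stood at -0.08. FBXO2 rose by 0.39 and 0.53. FBXO32 (atrogin-1) was at 0.15 for calf 301 and -0.22 for calf 303 and did not pass (adjusted p = 0.837). Without PBS 303 the calls of FBXO11, FBXO2 and FBXO7 were lost, with a largest adjusted p of 0.0658 to 0.163 over the fits without 1 array.

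Among the 5 FBXW genes 2 rose (40%, against 23% of all genes) and 1 fell (20%, against 29.7%). FBXW7, the receptor for MYC, cyclin E and NOTCH, had -0.31 and -0.18 with PBS in calves 301 and 303 and 0.13 and 0.72 with APP. It rose 1.59-fold (0.67 ± 0.32, SD, n = 2 calves, limma adjusted p = 0.00439), a call that was lost without the block (adjusted p = 0.0555). FBXW11, a receptor for phosphorylated inhibitors of NF-kappaB, rose by 0.40 and 0.27, although its arrays overlapped between treatments, and it too was lost without the block (adjusted p = 0.235). FBXW5 fell by 0.60 and 0.46. All 3 calls were lost without PBS 301 and without PBS 303 (largest adjusted p 0.0756 to 0.697).

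The KLHL genes, receptors of CUL3 complexes, had the smallest median size of change of the larger families. Of 12, 4 fell (33.3%, near the 29.7% of all genes) and 0 rose, against 23% (0 also at an unadjusted p under 0.05, limma). The median size of the change was 0.10, beside 0.32 for all genes. Averaging probe sets of opposite sign put some genes near 0, among them KLHL21 (-0.57 and 0.38) and KLHL12 (-0.39 and 0.27). KLHL24 had 0.31 and 0.40 with PBS in calves 301 and 303 and -0.95 and -0.41 with APP, a fall of 2.05-fold (-1.04 ± 0.31, SD, n = 2 calves). KLHL28 fell by 1.48 in calf 301 and 0.54 in calf 303, the widest gap between the calves of all ligase genes. KLHL2 fell by 0.37 and 0.65, and KLHL36 by 0.21 and 0.43 with a call that was lost without the block (adjusted p = 0.175). KLHL28 did not keep its call without PBS 301 (adjusted p = 0.0759), nor did KLHL2 and KLHL36 without PBS 303.

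The ASB genes, SOCS-box receptors of CUL5 complexes, counted 4 falls and 1 rise among 10 (40% and 10%, against 29.7% and 23% of all genes). ASB3 had 0.40 and 0.65 with PBS in calves 301 and 303 and -0.97 and -0.59 with APP, a fall of 2.48-fold (-1.31 ± 0.10, SD, n = 2 calves, limma adjusted p = 6.99e-05). ASB8 fell by 0.53 and 0.79, ASB13 by 0.53 and 0.64 and ASB12 by 0.36 and 0.77. ASB2, which directs filamins to degradation, rose by 0.48 and 0.62. The calls of ASB2, ASB8, ASB12 and ASB13 were all lost without PBS 303 (largest adjusted p over the fits without 1 array 0.0741 to 0.161).

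Among HECT-type ligases the measured changes were falls or did not pass. HERC4 fell by 1.16 in calf 301 and 0.92 in calf 303 and HERC2, a giant ligase of DNA repair, by 0.73 and 0.61. HERC5, the ligase for the ubiquitin-like protein ISG15, was at -0.14 and -0.10 and did not pass (adjusted p = 0.333, limma). HERC6, its relative, had 0.40 with PBS and -0.45 with APP in calf 301 but -0.05 and 0.04 in calf 303, and did not pass (adjusted p = 0.152). NEDD4L, known for controlling ion channels, fell by 0.91 and 0.71, and HECTD3 by 0.59 and 0.66 with -1.17 to -0.30 over its 3 probe sets. HERC4, HERC2, NEDD4L and HECTD3 kept their calls in every fit without 1 array.

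UBR1 and UBR2 read the amino end of their targets, which does not hold for every UBR protein. UBR3 had 0.58 and 0.51 with PBS in calves 301 and 303 and -0.83 and -0.87 with APP, and fell 2.63-fold (-1.39 ± 0.02, SD, n = 2 calves, limma adjusted p = 5.08e-05). UBR1 rose by 0.31 and 0.32, a call lost without the block (adjusted p = 0.0588) and in all 4 fits without 1 array (largest adjusted p 0.262). UBR2, the nearest relative of UBR1, was at -0.21 and -0.13 and did not pass (adjusted p = 0.177).

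The calves largely moved alike, as they did over all genes. The change had the same sign in both for 116 of the 136 genes, close to the 84.7% of all genes. The arrays of the treatments did not overlap for 95 of the 136, a share somewhat under the 73.8% of all genes. Of the 20 genes with opposite signs none was called in limma's test (0 of 20). That test sets the mean change partly against the gap between the calves, so such calls were unlikely in advance. The 0 therefore says nothing of agreement. Across the 136 genes, which are not independent replicates and share their arrays, the changes correlated with Pearson r = 0.907 and Spearman rho = 0.887. Neither value was set beside one for all genes. The widest gaps, calf 303 minus calf 301, were 0.94 for KLHL28, 0.93 for HERC6 and 0.78 for FBXL8 on one side, and -0.52 for RNF214, -0.51 for FBXO33 and -0.49 for TRIM36 on the other. With 1 change per calf these gaps could not be tested. The difference between the animals, averaged over treatments, was larger than the APP change for 29 ligase genes. Of these, 3 had passed the test for APP, namely RNF181, RNF7 and FBXW11.

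**Figure D3:**
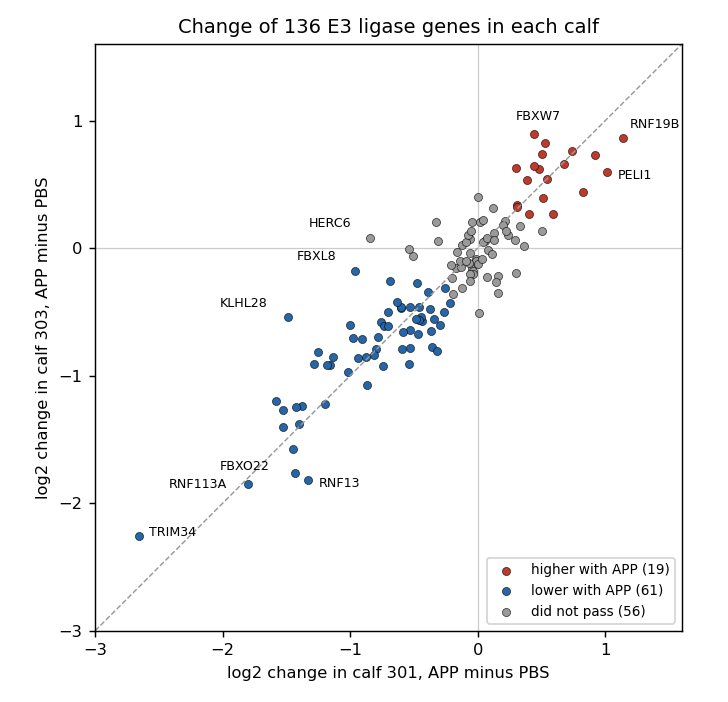
Log2 change in calf 303 against that in calf 301, APP minus PBS, for the 136 ligase genes (red higher, blue lower, grey did not pass limma's test), with equal changes on the dashed line. Points follow the line from TRIM34 to RNF19B, and HERC6, FBXL8 and KLHL28 lie farthest above it, with larger falls in calf 301.

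Partner genes were counted from lists of other subunits, regulators and ligases that the rule did not take in. Beside each count stand the shares of all genes, 29.7% falling and 23% rising, and no list was tested against them. Of 12 measured subunits of the anaphase promoting complex, the cell cycle ligase, 8 fell and 0 rose (0 also at an unadjusted p under 0.05, limma), led by ANAPC13 (-1.24), CDC23 (-1.13) and ANAPC4 (-0.99). Of 10 partners of CUL2 and CUL5, 6 fell and 1 rose. WSB2 (-0.90, with -2.27 to 0.03 over its 3 probe sets), KLHDC2 (-0.88) and KLHDC3 (-0.87) fell, while the adaptor ELOC rose by 0.53. Of 13 partners of CUL4, 7 fell and 0 rose (2 rose at an unadjusted p under 0.05), with DCAF17 (-1.20), DCAF15 (-0.94) and DCAF8 (-0.83) the largest. Of 13 partners of CUL3, 1 rose and 2 fell, with KCTD5 up by 1.08, IVNS1ABP down at -0.64 and KCTD10 at -0.30. Beyond CUL1, 5 SCF partners gave 2 rises, CAND1 (0.41) and CCNF (0.35), and 1 fall, GLMN (-0.64).

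Neddylation, which switches cullins on, moved both ways. Of 13 genes of this step and of the COP9 signalosome that reverses it, 5 fell and 4 rose. These are 38.5% and 30.8%, against 29.7% and 23% of all genes. DCUN1D5, a neddylation cofactor, rose by 1.57 in calf 301 and 1.53 in calf 303, or by 0.70 if scaled to the hybridization controls. The other large changes were those of NAE1 (-0.68) and DCUN1D1 (0.58). NEDD8 itself, the modifier, fell by 0.47 on average.

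Of 9 other HECT ligases 5 fell (55.6%, against 29.7% of all genes) and 0 rose (0 also at an unadjusted p under 0.05, limma). WWP1 fell by 1.95 on average (-1.82 in calf 301 and -2.08 in calf 303) and WWP2 by 1.33 (-1.23 and -1.42). ITCH, a ligase that restrains T cell activation, fell by 0.92 and 0.37, a call lost without the block (adjusted p = 0.114). The adaptors NDFIP2 (0.71) and NDFIP1 (0.36), which recruit and activate NEDD4-type ligases, rose, and ARRDC1 (-0.28) fell, among 4 measured. Those of NDFIP1 and ARRDC1 were lost without the block (adjusted p = 0.119 and 0.0815).

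Of 42 other RING and U-box ligases 12 fell (28.6%, near the 29.7% of all genes) and 6 rose (14.3%, against 23%). SIAH2, a ligase of the hypoxia response, rose by 1.98 in calf 301 and 2.25 in calf 303, more than any of the 136 ligase genes. DTX1, a Notch-linked ligase with a role in T cell anergy, rose by 1.62 and 1.07, its 4 probe sets ranging from 0.56 to 2.74, and TRAF3 rose by 1.29 on average. UHRF2 (-1.62), DTX3L (-1.28) and VPS11 (-1.09) fell most. SIAH2, DTX1 and TRAF3 kept a positive change when scaled to the hybridization controls, at 1.26, 0.49 and 0.44.

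Many partner calls were also lost in the fits without 1 array, which leave out the block too. Without 1 array, the calls kept in all 4 fits were 4 of 8 for the anaphase promoting complex, 4 of 7 for the CUL2 and CUL5 partners, 3 of 7 for the CUL4 partners, 1 of 3 for the CUL3 partners, 0 of 3 for the SCF partners, 2 of 9 for neddylation, 2 of 5 for HECT ligases, 0 of 3 for the NEDD4 adaptors and 10 of 18 for the other RING and U-box ligases. In each of these lists a call was lost in the fit without PBS 303 and without the block. Among the genes named here, those kept were ANAPC13, CDC23, ANAPC4, WSB2, KLHDC2, KLHDC3, DCAF15, DCAF8, KCTD5, DCUN1D5, NAE1, WWP1, WWP2, SIAH2, DTX1, TRAF3, UHRF2, DTX3L and VPS11. The calls of CCNF, KCTD10, IVNS1ABP and DCUN1D1 were also lost without the block (adjusted p = 0.0895, 0.078, 0.102 and 0.0906, limma). Without the block the falls numbered 2 among the HECT ligases, 3 among the neddylation genes, 7 in the anaphase promoting complex and 8 among the other RING and U-box ligases.

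**Figure D4:**
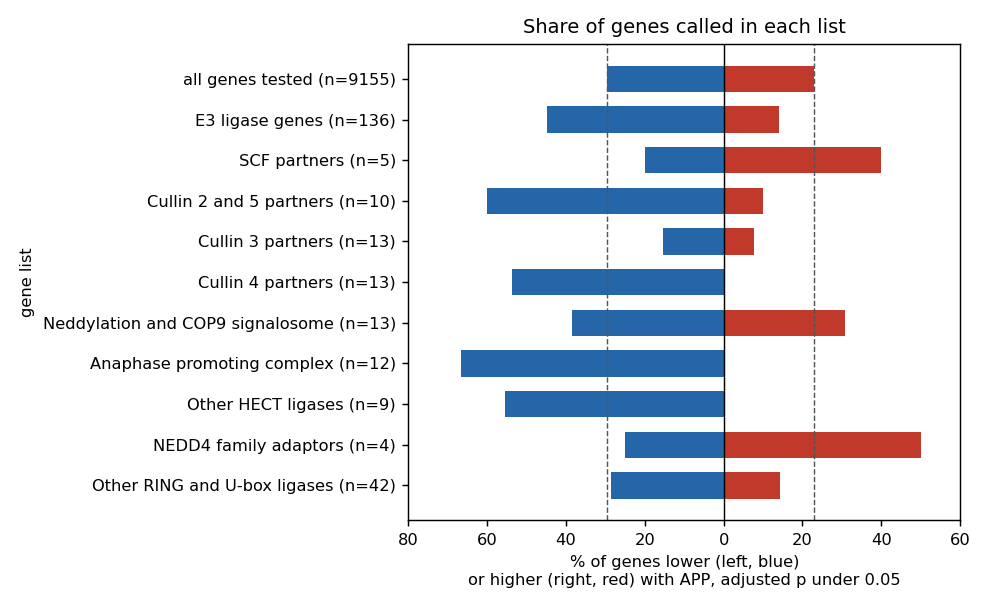
Percent of genes that fell (blue, left of 0) or rose (red, right of 0) with APP at an adjusted p of 0.05 in all genes, in the 136 ligase genes and in 9 lists of partner genes, with the number of measured genes in brackets and dashed lines at the shares of all genes (29.7% and 23%). The ligase genes reach 44.9% on the left and 14% on the right, and several lists hold few genes.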

How the data were processed

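Bovine Affymetrix arrays measured total RNA, of which 15 µg per sample were labelled, per the labels' protocols. RMA is the tool that the submitters' processing notes name, with no version. The deposited values are linear ratios to each probe set's median over the 4 arrays, found from the values: the mean of each probe set's middle values lies between 0.9815 and 1.001. A fold change near background is compressed, and which probe sets lay there is unknown. The number of arrays limits the precision.

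Log2 of the deposited ratio was used without further normalization, 112 control probe sets were left out, and probe sets of a gene were averaged. Of 24016 probe sets 13292 had 1 gene symbol, 86 several and 10638 none in the platform table; 13263 of the first were matched to RefSeq (ARS-UCD2.0) by identifier, used for names and neighbours only. All 138 member symbols were current. Of the ligase genes 98 had 1 probe set and 38 several. limma 3.58.1 in R 4.3.3 (lmFit, eBayes, two-sided) was run on all 9155 genes with the calf as a block, because the titles name the same 2 calves in both groups, and p-values were adjusted over all genes by Benjamini-Hochberg, with calls at 0.05. The differences between the calves correlated between PBS and APP across genes (r = 0.509). The fit has 1 residual degree of freedom and 5.86 prior degrees. Standard errors of the ligase changes ran from 0.095 to 0.203. The fit was tested on simulated data.

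Members and lists were chosen with earlier results of these data known. Genes named are the 12 largest rises and falls, the largest of each family and direction, the 3 largest gaps between the calves per direction, 37 measured of 59 well known ligases, and up to 3 partners per list with the largest change; other genes named were chosen after their values were seen. Alternatives were no block, scaling to 14 bioB, bioC and bioD probe sets, median centring, quantile normalization, other probe set rules, robust eBayes, a 2-fold rule, other member rules and leaving out each array.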

Additional observations from a re-analysis of the deposited data

Results flagged for a closer look

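The hybridization controls bioB, bioC and bioD, which enter no comparison of genes, read higher on the APP arrays than on the PBS arrays. The mean log2 difference was 0.76 in calf 301 and 0.94 in calf 303. Scaled to them, the median change of all genes moved from 0.01 to -0.84. Their part in the ligase results was not tested beyond that scaling.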

How the results depend on the processing

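Centring arrays on their median, quantile normalization, the median over a gene's probe sets, robust eBayes and membership by the current RefSeq symbol left the counts of ligase genes within 1.5 times of 19 rises and 61 falls. Without the replicate block 14 rose and 53 fell, and of the 64 named genes 7 lost the call. Scaled to the hybridization controls, 0 rose and 126 fell, with a median of -1.05. The change then turned negative for RNF121 (-0.024), PELI1 (-0.046), RNF126 (-0.10), TRIM10 (-0.17), RNF2 (-0.18), FBXW7 (-0.18), RNF216 (-0.22), FBXO11 (-0.23), ASB2 (-0.31), MARCHF3 (-0.31), TRIM27 (-0.31), UBR1 (-0.54) and FBXW11 (-0.52), all called rises, and for TRIM36 (-0.80), CBLB (-0.77), RNF19A (-0.66), TRIM56 (-0.76), TRIM8 (-0.81) and CUL1 (-0.82), which had not passed. This follows from the shift of 0.85 that the scaling takes from every mean change. The 2-fold rule in both calves left 0 rises and 12 falls. Leaving out each array in turn gave 5 to 13 rises, 32 to 51 falls and a median of -0.23 to -0.21. The median was -0.26 over genes with 1 probe set and -0.17 with CBLN4 and CBLIF included. Signal over background is unknown on the ratio scale, so no filter on dim probe sets could be tried.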

Other observations

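Probe sets of one ligase gene did not always move together. Of the 38 ligase genes with several probe sets, 18 had probe set changes more than 0.5 apart on the log2 scale, and in 16 the changes had opposite signs. KLHL21 did not pass as a gene, with probe sets at -0.57 and 0.38, and KLHL12 had -0.39 and 0.27. RNF34, which fell by 1.10 on average, had -1.49 and -0.70. The 2 genes that matched by spelling alone, CBLN4 and CBLIF, were each at 0.06 and did not pass limma's test (adjusted p = 0.63 and 0.685).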
